A study of Mus musculus with 8 samples.

Results

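Malat1, Neat1 and Kcnq1ot1 are long noncoding RNAs that are kept in the nucleus. They were taken by symbol, by a rule that uses no measured value, although earlier results of these data were known, and are 3 of the 55401 genes in each table. The tables come from AML12, a hepatocyte line from mice that carry a human TGF-alpha transgene, in 4 control dishes and 4 dishes cultured for 1 h under Opti-ELF-WMF, a weak magnetic field of 10 µT (100 mG in the labels) pulsed for 4 ms at frequencies that rose from 1 to 8 Hz. All dishes came from 1 batch of cells, grown with serum, dexamethasone, insulin, transferrin and selenite, and the control dishes stood in another incubator of the same model with the stimulator off. The field and the incubator therefore cannot be told apart, and p-values measure the spread among dishes of that batch. That each sample is a separate dish is stated for the study's other cell assays, and is assumed here for the RNA-seq. The question put to these RNAs was how RNA of the nucleus compared with RNA of the mitochondria in the same dish, since the mitochondrial share of the libraries differed between the conditions.

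Malat1 is an abundant RNA of nuclear speckles, the bodies that store splicing factors. Neat1, its neighbour in the genome, is the scaffold of paraspeckles, nuclear bodies that hold RNA-binding proteins and some edited RNAs. Neat1 has a short form with a poly(A) tail and a long form without one, and the long form builds the paraspeckle. Malat1 and the long form of Neat1 are cut at their 3′ end by RNase P, the enzyme that also trims tRNAs, and the new end is protected by a helix in which an A-rich tract folds onto a pair of U-rich tracts. Kcnq1ot1 is an unspliced RNA transcribed from the paternal allele inside the gene Kcnq1, and it silences neighbouring imprinted genes.

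The libraries were made by selecting RNA with a poly(A) tail, so the 3′ ends are shown first. The sequences are those of GENCODE M21 on GRCm38, all from the minus strand, written 5′ to 3′ with T for U. In the first pair, which shows the protected ends, capitals mark TTTCTTTT, TTTTGCTTTT and AAAAAGCAAAA. The Malat1 stretch is chr19:5795962-5796069, and the Neat1 stretch, the last bases of the long form, is chr19:5824708-5824801.
Malat1-201: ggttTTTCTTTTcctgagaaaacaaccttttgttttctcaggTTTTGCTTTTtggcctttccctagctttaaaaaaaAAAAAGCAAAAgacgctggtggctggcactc
Neat1-201: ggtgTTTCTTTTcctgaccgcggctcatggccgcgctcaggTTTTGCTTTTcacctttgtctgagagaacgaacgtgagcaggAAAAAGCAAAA

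These letters were read from Neat1 and then searched on the transcript strand only. AAAAAGCAAAA alone occurred in 618 of 141767 annotated transcripts (0.436%). The 3 strings in this order, with at most 150 bases between each, occurred in 2 transcripts, Malat1-201 and Neat1-201. The annotated Malat1 transcript runs on for 292 bases past AAAAAGCAAAA, and its longest run of A, 12 bases, begins before that string and runs into it.

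The next ends are those of the short form of Neat1 (chr19:5842307-5842386) and of Kcnq1ot1 (chr7:143203458-143203537), with the polyadenylation signal AATAAA in capitals. This signal was present in the last 50 bases of 26.6% of 141672 transcripts of at least that length. The third stretch, chr7:143226925-143227005, is inside Kcnq1ot1 and holds a run of 41 A, in capitals. A run of that length occurred in 25 transcripts (0.0176%).
Neat1 short form: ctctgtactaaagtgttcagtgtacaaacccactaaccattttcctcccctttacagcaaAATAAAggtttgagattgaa
Kcnq1ot1-201 end: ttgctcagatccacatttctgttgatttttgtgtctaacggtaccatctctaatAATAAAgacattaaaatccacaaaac
Kcnq1ot1-201 internal: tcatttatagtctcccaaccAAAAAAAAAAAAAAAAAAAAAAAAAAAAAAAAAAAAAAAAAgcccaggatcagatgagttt

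The values are TPM, transcripts per 1000000, a read abundance corrected for gene length and scaled to an equal total in each dish. TPM keeps no sequencing depth, so the counting error of each value is unknown. Genes of at least 1 TPM in at least 4 dishes (12122 genes) were compared with limma on log2(TPM + 1), and fold changes are on that scale, exposed over control. No gene had an adjusted p-value under 0.05 (0.0% of the tested genes), and 1894 genes had an unadjusted p-value under 0.05. The 10 hepatocyte markers summed to between 5440 and 5702 TPM in control dishes and between 5794 and 6003 TPM in exposed dishes, with 5 members lower and 5 higher, while fibroblast, endothelial and immune markers summed to at most 1.6, 0.08 and 2.31 TPM. The 4 cholangiocyte markers summed to between 1203 and 1339 TPM.

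Malat1 and Neat1 were both lower in the exposed dishes, where the mean TPM differed from the control mean by -24.2% and -18.4%, and Kcnq1ot1 was low throughout. Malat1 (ENSMUSG00000092341, chromosome 19 from 5795690 to 5802672) is a single-exon RNA of 6983 bases. Its TPM was 209.8, 186.7, 168.9 and 181.1 in control replicates 1 to 4, and 136.1, 120.7, 133.1 and 176.1 in exposed replicates 1 to 4. Exposed replicates 1, 2 and 3 lay below every control dish, and exposed replicate 4 lay among the control dishes. Control dishes averaged 186.6 ± 17.1 TPM and exposed dishes 141.5 ± 24.0 TPM (SD, n = 4 each). The log2 fold change was -0.41 (standard error 0.11, 95% interval -0.65 to -0.17, unadjusted p = 0.00359, adjusted p = 0.139, limma), and it did not pass the threshold. Of the tested genes, 0.775% had a log2 fold change as low or lower. In whole dishes, fewer cells with an RNA and less of it per cell cannot be told apart.

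Neat1 (ENSMUSG00000092274, chromosome 19 from 5824708 to 5845478) had a TPM of 232.7, 251.2, 251.3 and 251.0 in control replicates 1 to 4. In exposed replicates 1 to 4 it had 200.1, 182.0, 196.4 and 226.4. All 4 exposed values were under the lowest control value, which held for 1.86% of the tested genes. It held for 4.82% of the 498 tested genes that GENCODE M21 classes as long noncoding. Of all tested genes, 1.7% had a log2 fold change as low or lower. The means were 246.5 ± 9.22 and 201.2 ± 18.5 TPM (SD, n = 4 each). The log2 fold change was -0.30 (standard error 0.06, 95% interval -0.43 to -0.16, unadjusted p = 0.000581, adjusted p = 0.122, limma), which did not pass the threshold over all genes. The tables give 1 value per gene, so the short and the long form of Neat1 were not separated.

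Kcnq1ot1 (ENSMUSG00000101609, chromosome 7 from 143203458 to 143296549) spans 93092 bases without introns, and its TPM was below the limit for testing. It had 0.29, 0.27, 0.33 and 0.28 TPM in control replicates 1 to 4 and 0.22, 0.20, 0.23 and 0.28 TPM in exposed replicates 1 to 4. As with Malat1, exposed replicates 1 to 3 lay below every control dish and replicate 4 did not. The means were 0.2925 ± 0.0263 and 0.2325 ± 0.034 TPM (SD, n = 4 each). The difference was -0.07 on the log2(TPM + 1) scale and -0.34 in log2 TPM with no pseudocount (exact permutation p = 0.0857 for each, two-sided, over 70 assignments). Values are deposited to 2 decimals, so steps of 0.01 TPM are the finest that can be seen here. In a fit of all 25413 genes above 0 in any dish, where 3.27% were lower with an unadjusted p-value under 0.05, Kcnq1ot1 had an adjusted p-value of 0.526 (limma). Without exposed replicate 4 the difference was -0.09 on the log2(TPM + 1) scale, with an exact permutation p of 0.0286. That dish was the one exposed dish not below the controls, so leaving it out separates the conditions and gives the smallest p that 3 dishes against 4 allow.

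**Figure D1:**
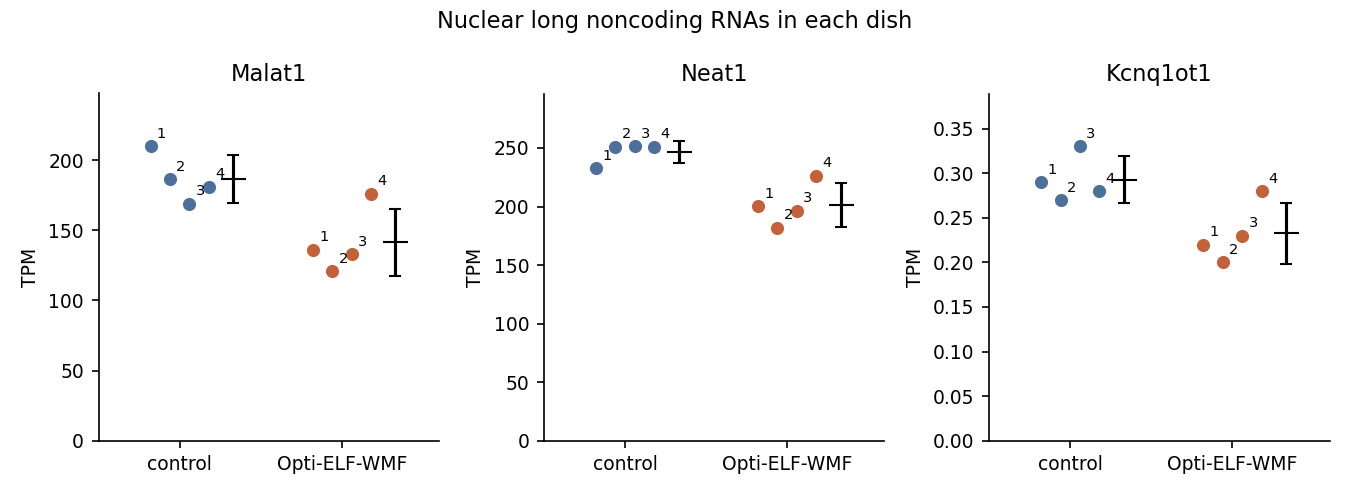
TPM of Malat1, Neat1 and Kcnq1ot1 in each dish, with a linear axis from 0 in each panel. Points are dishes, labelled by replicate number, and the bar at the right of each group is the mean ± SD of 4 dishes. Only for Neat1 are the conditions separate, and in all 3 panels exposed replicate 2 is the lowest and exposed replicate 4 the highest of the exposed dishes.

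By level, per unit of length, Neat1 stood above Malat1 in 8 of 8 dishes, and both stood far above Kcnq1ot1. Of the 9911 genes that GENCODE M21 classes as long noncoding, Neat1 ranked 6 and Malat1 ranked 8 by mean TPM (224 and 164), and Kcnq1ot1 ranked 1104 (0.263). The class holds genes such as Cct6a, at rank 3, whose symbols are those of coding genes, and the ranks depend on it. The annotation behind the TPM values is not given in the sources used here, and the length by which reads were divided is not known. Genes annotated inside Malat1 or Neat1 were listed at 0 TPM in every dish. Of those overlapping Kcnq1ot1 on the opposite strand, Kcnq1 had at most 0.02 TPM and Gm27395 at most 0.34 TPM. The strand setting of the counting is not given either.

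A ratio between genes of the same dish does not depend on how TPM is scaled, so the members were also compared with each other. The log2 ratio of Malat1 to Neat1 averaged -0.41 ± 0.18 without and -0.52 ± 0.10 with exposure (SD, n = 4 each), a difference of -0.11 (95% interval -0.44 to 0.21, exact permutation p = 0.343, adjusted p = 0.629 over 3 pairs). The ratio of Malat1 to Kcnq1ot1 differed by -0.07 (interval -0.32 to 0.30) and that of Neat1 to Kcnq1ot1 by 0.04 (interval -0.20 to 0.26), with the same adjusted p-value. None of the 3 differences exceeded the spread between dishes, and the intervals leave room for differences of about the size of the fold changes themselves. Among control dishes, replicate 1 had the highest Malat1 and the lowest Neat1. Replicate 3 had the lowest Malat1, while Neat1 was nearly equal in replicates 2, 3 and 4 (251.0 to 251.3 TPM). Among exposed dishes both RNAs were lowest in replicate 2, then in 3 and 1, and highest in 4.

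The mitochondrial genes, 37 symbols that start with mt-, held 8.72%, 8.69%, 9.42% and 8.93% of TPM in control replicates 1 to 4. They held 6.96%, 5.99%, 7.69% and 7.52% in exposed replicates 1 to 4. All exposed values were under the control values (difference -1.90 percentage points, interval -3.42 to -1.0, exact permutation p = 0.0286, the smallest that 4 dishes against 4 allow). Exposed replicate 2 had the lowest mitochondrial share and the lowest value of Malat1, Neat1 and Kcnq1ot1. Exposed replicate 3 had the highest mitochondrial share of the exposed dishes but the second-lowest Malat1 and Neat1, and control replicate 3 had the highest share of all dishes but the lowest Malat1 of the control dishes. Since the conditions separated on the mitochondrial share, no correlation over the 8 dishes is given, and 4 dishes within a condition are too few for one.

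**Figure D2:**
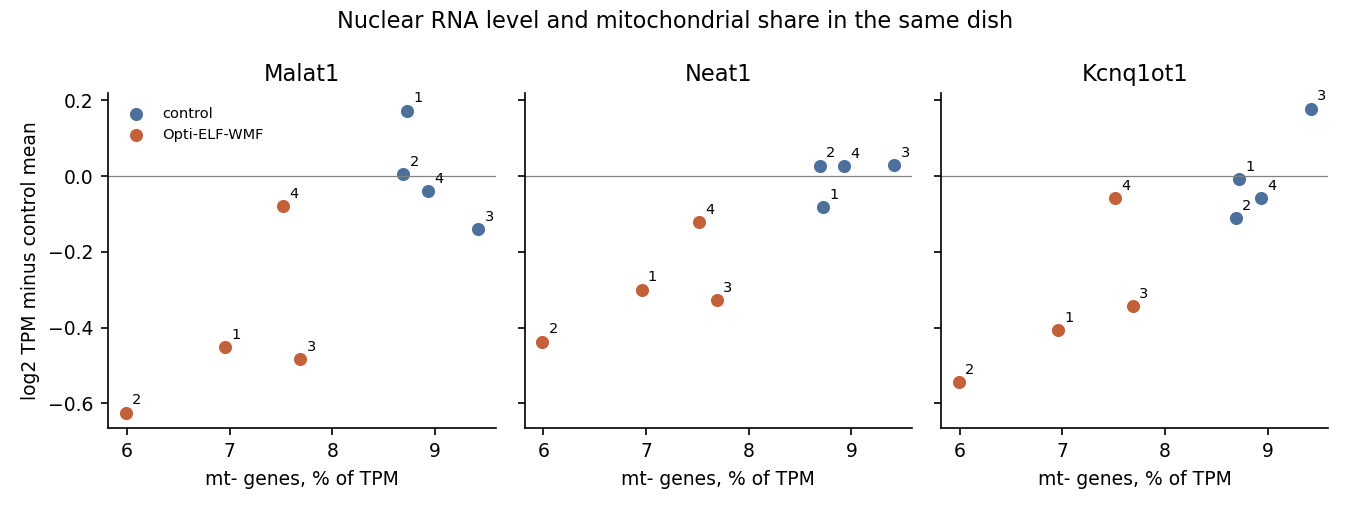
Level of each nuclear RNA (vertical axis, log2 TPM minus the mean of the control dishes) against the share of TPM in mt- genes of the same dish (horizontal axis, percent). Points are dishes, labelled by replicate number; exposed dishes lie to the left, between 5.99% and 7.69%, and control dishes to the right, between 8.69% and 9.42%.

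Set against the summed TPM of the mitochondrial genes, the members showed no difference beyond the spread between dishes. The log2 ratio of Malat1 to the mitochondrial sum averaged -8.91 ± 0.18 without and -8.97 ± 0.18 with exposure (SD, n = 4 each), a difference of -0.06 (interval -0.47 to 0.38). For Neat1 the difference was 0.05 (interval -0.18 to 0.19) and for Kcnq1ot1 it was 0.01 (interval -0.23 to 0.26). The adjusted p-value was 0.83 for each of the 3 (exact permutation test). The Malat1 interval leaves room for a difference of about the size of its log2 fold change (-0.41). Those of Neat1 and Kcnq1ot1 leave room for smaller differences in either direction, so equal changes are not shown. With TPM rescaled to its full total without the mt- genes, the log2 fold change was -0.44 for Malat1 and -0.33 for Neat1, with adjusted p-values of 0.230 and 0.227 (limma).

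Poly(A) selection carries over some RNA that ends without a tail, so the TPM of such RNAs was also read. It depends on their amount in the cell as well as on the carry-over, and these were not separated. Rn7sk, the 7SK RNA that holds the transcription elongation factor P-TEFb inactive in the nucleus, had 24.1, 28.24, 27.59 and 23.21 TPM in control replicates 1 to 4. In exposed replicates 1 to 4 it had 16.82, 8.54, 13.37 and 20.22 TPM. The exposed values were all below the control values, as in 1.86% of the tested genes (log2 fold change -0.82, standard error 0.21, unadjusted p = 0.00272, adjusted p = 0.133, limma), with replicate 2 the lowest and replicate 4 the highest of the exposed dishes, as for the members. Rmrp, the RNA of RNase MRP, had a log2 fold change of -1.33 (95% interval -2.50 to -0.17, adjusted p = 0.252, limma), with overlapping dishes (2.54 to 13.83 TPM in control and 0.67 to 5.27 TPM in exposed dishes). Rpph1, the RNA subunit of the RNase P that cuts Malat1 and Neat1, had 0.00 (interval -1.03 to 1.04), from 0 to 4.07 TPM. Rn7s1 and Rn7s2, copies of the RNA of the signal recognition particle, carried identical values and overlapped between conditions. Rn7sk and these RNAs have many near-identical copies, so their values are uncertain. The histone mRNAs of DNA replication, which have no tail, held between 0.000467% and 0.00111% of TPM and overlapped between conditions (exact permutation p = 0.83). The difference was -8.07e-05 percentage points (interval -0.000626 to 0.000251). This interval is wide beside the control mean of 0.0006625%, so a difference is neither shown nor excluded. Whether carried-over RNA had a part in the Malat1 and Neat1 values was not tested.

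**Figure D3:**
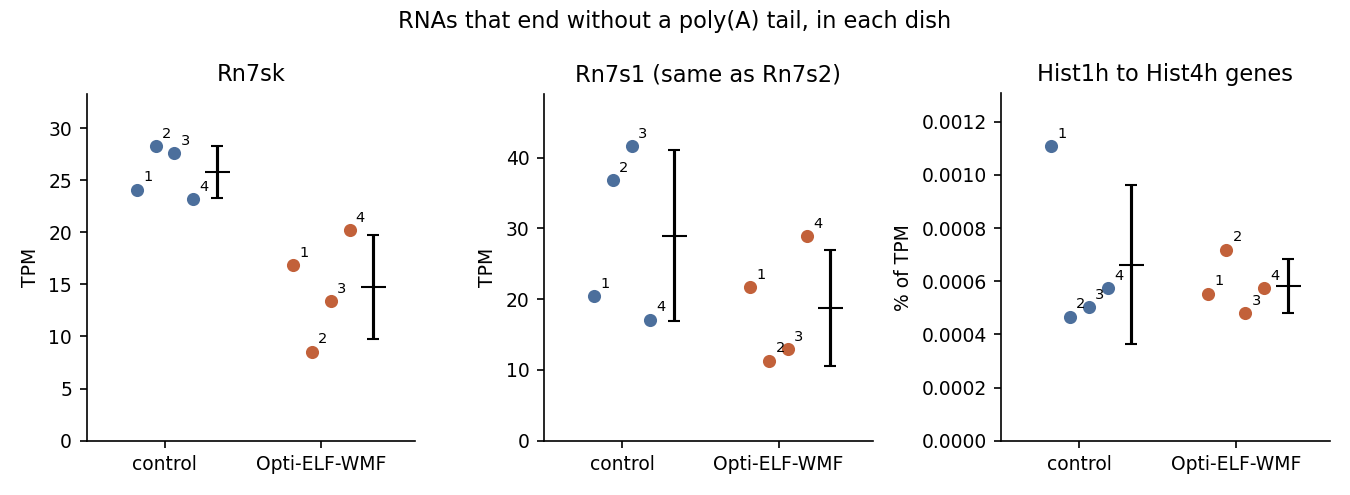
TPM of Rn7sk and of Rn7s1, and the percent of TPM in replication-dependent histone genes, in each dish. Points are dishes, labelled by replicate number, and bars are the mean ± SD of 4 dishes. Rn7sk is at most 20.22 TPM in exposed dishes and at least 23.21 TPM in control dishes, while the other 2 quantities overlap.

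Other RNAs known for their nuclear location were counted from lists, beside 36.3% of all tested genes with a log2 fold change below 0 and a median over all tested genes of 0.03. Of 22 other nuclear long noncoding RNAs, 11 were tested, of which 9 were lower and 2 higher (median -0.09), and 0 passed the threshold. Of all 498 tested genes of the long noncoding class, 64.9% were lower (median -0.06). Dleu2, the host of the miR-15a and miR-16 genes, stood at -0.31 in log2 fold change (adjusted p = 0.166, limma, standard error 0.09), and Firre, which organises contacts between chromosomes, at -0.26 (standard error 0.10, adjusted p = 0.253, limma). Airn, an unspliced imprinted RNA like Kcnq1ot1, went from 10.5 ± 0.861 to 9.3 ± 1.29 TPM (SD, n = 4 each), with overlapping dishes. Of the 20 members found in the tables, 9 had a mean below 1 TPM, including 4 listed at 0 in every dish. The RNAs that are mostly cytoplasmic, such as Gas5 and Snhg1, also had more lower than higher members, 7 and 2 of 9 tested (median -0.08). With an unadjusted p-value under 0.05 (limma), 4 of these 9 were lower, as were 2 of the 11 nuclear ones. This held in that direction for 3.65% of the tested genes, and 0 members of either list were higher at that level.

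Among coding RNAs reported to stay in the nucleus, 4 of 7 were tested and all 4 were lower (median -0.20), with an unadjusted p-value under 0.05 in each, which held in this direction for 3.65% of the tested genes. Mlxipl, which encodes the glucose-responsive factor ChREBP, had 13.46, 13.31, 13.60 and 13.52 TPM in control dishes and 11.11, 11.65, 11.42 and 11.84 TPM in exposed dishes. The log2 fold change of Mlxipl was -0.21 (standard error 0.04, adjusted p = 0.122, limma). Clk4, a kinase of splicing factors whose transcripts often keep introns, had -0.25 (standard error 0.06, adjusted p = 0.122, limma). In both genes the exposed values were all below the control values, as in 1.86% of the tested genes. Ogt and Clk1, the other tested members, overlapped between conditions.

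**Figure D4:**
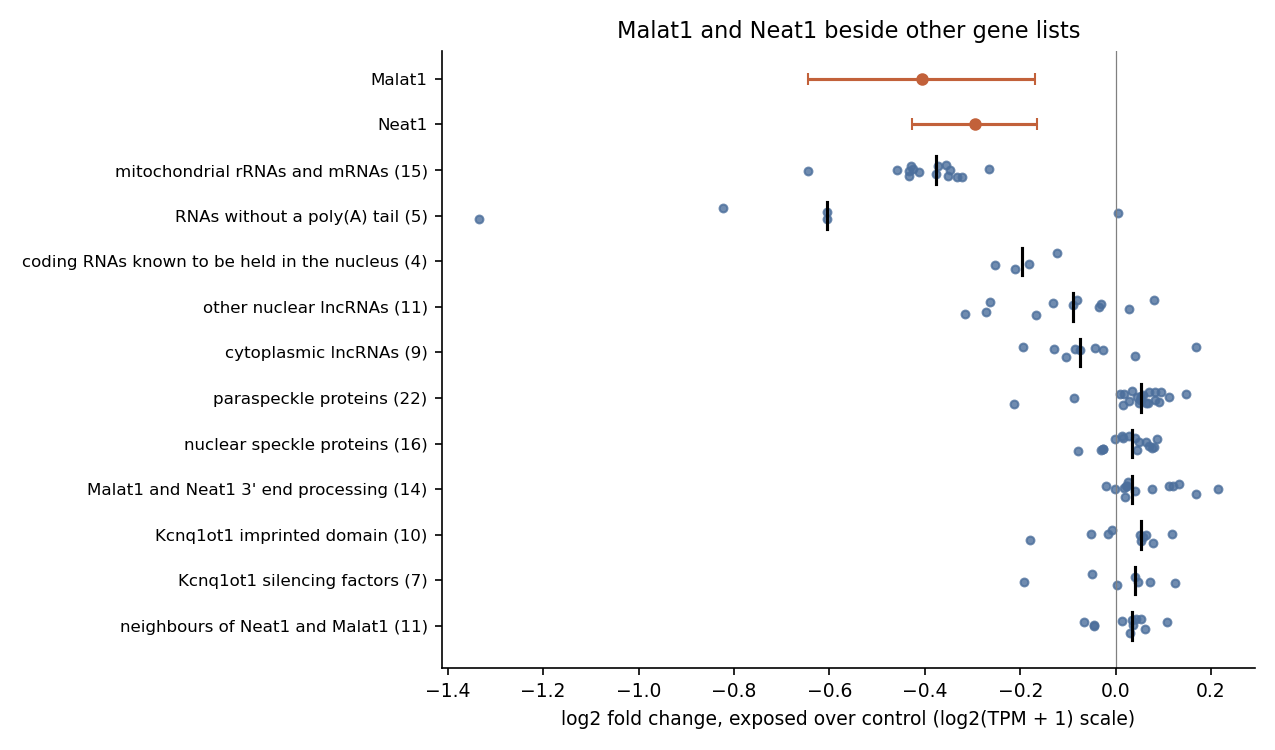
Log2 fold change, exposed over control on the log2(TPM + 1) scale, of Malat1 and Neat1 with their 95% intervals (orange) and of the tested genes of each list (blue points, number tested in parentheses, black bar at the median). Malat1 (-0.41) and Neat1 (-0.30) lie beside the mitochondrial genes, and the lists of nuclear body proteins lie around 0.03 to 0.05.

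For proteins that assemble with these RNAs, the mRNAs were read, and protein amounts were not measured here. They are set beside 7720 of 12122 tested genes with a log2 fold change above 0. Of 22 genes for paraspeckle proteins, 20 were higher and 2 lower (median 0.05), and 0 passed the threshold. The core genes Nono, Sfpq and Pspc1 had log2 fold changes of 0.05, 0.02 and 0.09, and Sfpq had a value below 0 under each of the other 3 scalings. Nono had 351, 332, 346 and 339 TPM in control dishes and 340, 365, 369 and 346 TPM in exposed dishes. Hnrnpk, which guides the choice between the short and the long form of Neat1, had a log2 fold change of 0.08. Of 16 genes for nuclear speckle proteins, 11 were higher and 5 lower (median 0.03), with Srrm2, a speckle scaffold, at -0.08 (standard error 0.04, adjusted p = 0.370, limma). Under the other 3 scalings the medians ran from 0.023 to 0.031 for paraspeckle proteins and from 0.0047 to 0.012 for speckle proteins.

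Of 14 genes for the processing of the Malat1 and Neat1 3′ ends, 12 were higher and 2 lower (median 0.03). Mettl16, a methyltransferase that binds the protected end of Malat1, had 25.42, 26.11, 23.64 and 25.65 TPM in control dishes and 32.50, 26.89, 29.78 and 28.62 TPM in exposed dishes. The exposed values were all above the control values, which held for 8.01% of the tested genes, and the log2 fold change was 0.21 (standard error 0.06, adjusted p = 0.142, limma). Elac2, the RNase Z that trims the tRNA-like fragment released from Malat1, was among the genes that did not pass. The 11 tested neighbours of Neat1 and Malat1 on chromosome 19 ran from -0.07 for Ltbp3 to 0.11 for Fam89b (median 0.03). Frmd8, which lies next to Neat1, had 0.06.

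In the imprinted domain of Kcnq1ot1, Kcnq1 and Cdkn1c were near the limit of the tables. Kcnq1 was listed at 0 in 7 of 8 dishes and Cdkn1c, an inhibitor of cyclin-dependent kinases, had between 0.15 and 0.53 TPM. Phlda2, a growth inhibitor, went from 2.38 ± 0.462 to 2.02 ± 0.662 TPM (SD, n = 4 each), with overlapping dishes, and Slc22a18, a transporter gene, had between 6.17 and 8.82 TPM. Of the 10 tested genes of the domain, 6 were higher and 4 lower (median 0.05), and 0 passed the threshold. All exposed values were above the control values in 4 of the 10, against 8.01% of all tested genes, and below them in 0. Tnfrsf23 was among these 4, with 114.58 to 122.11 TPM in control and 123.35 to 132.57 TPM in exposed dishes. Nap1l4 was another, with 137.92 to 144.43 and 146.36 to 149.92 TPM. Whether these differences are tied to Kcnq1ot1 was not tested. The 7 factors that act with Kcnq1ot1 in silencing, such as Ehmt2 and Dnmt1, had a median of 0.04.

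By Pearson's r of log2(TPM + 1) over the 8 dishes, among 9787 or more tested genes of at least 5 TPM on average, the genes most like Neat1 were AI480526 (0.985), Col27a1 (0.958), Kmt5c (0.958), Sfi1 (0.953) and Rn7sk (0.952). Those most like Malat1 were Tsc22d3 (0.933), Gm13341 (0.927), Hrct1 (0.920), Zfp874b (0.920) and Gm28661 (0.918). Gm13341 and Gm28661 are pseudogenes, and Gm28661 had a mean of 14900 TPM in control and 11800 TPM in exposed dishes. The mitochondrial share, the ratios to the mitochondrial sum and the rescaling went by symbols that start with mt-. Gm13341 and Gm28661 were therefore counted outside the mitochondrial genes in all of these. Kcnq1ot1 was closest to Marveld1 (0.987), Cspp1, Arhgef39, Trim39 and Slc39a13. Malat1 and Neat1 had an r of 0.872, which put Neat1 at rank 19 in the order for Malat1. The points share the difference between conditions and the scaling of TPM, and these are the highest values in a ranked list.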

How the data were processed

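RNA-seq of AML12 cells compared 4 control with 4 exposed dishes, grouped by their titles. The authors deposited 1 table of TPM per dish. The submitters' processing notes name Trimmomatic 0.39, STAR 2.7.4a, RSEM 1.3.3 and build mm10. Library depth is unknown. TPM sums to 1000000 per dish.

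Differences were tested with limma 3.58.1 (trend) in R 4.3.3 on log2(TPM + 1), with Benjamini-Hochberg adjustment at 0.05. Single quantities were tested by two-sided exact permutation of the dishes, and their 95% intervals hold the shifts this test did not reject at 0.05. The fit was tried on simulated data with independent normal noise and a log2 change of 1 in some genes. That setting does not cover changes as small as those of Malat1 and Neat1. Python 3.11.15 was used.

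Positions, classes and sequences came from GENCODE M21 (GRCm38), which matched 55141 gene IDs. Where a symbol had several IDs, the one with the highest mean was used.

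The members and lists were chosen with earlier results of these data known. The rule for names took the 3 members, core genes of the lists, the 2 genes of smallest p-value per list and direction, and the 5 genes most like each member. Not all are described. Gene classes, intervals and the end sequences were added after the data were examined. Alternatives covered the pseudocount, filter, scaling, replicate block and each dish left out.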

Additional observations from a re-analysis of the deposited data

Results flagged for a closer look

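Dixon's criterion was applied to 58 sets of 4 dishes and singled out 1 dish in 3 of them, while about 2.9 would be singled out by chance. Neat1 was 232.7 TPM in control replicate 1, against 251.0 to 251.3 TPM in the other control dishes. The histone share was 0.001107% of TPM in the same dish, against 0.000467% to 0.000573%. The log2 ratio of Malat1 to Neat1 was -0.36 in exposed replicate 4, against -0.59 to -0.56 in the other exposed dishes.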

How the results depend on the processing

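Depth, the annotation and the strand setting behind TPM are unknown, and no count-based test was made, since TPM cannot be used as counts. The log2 fold changes of Malat1 (-0.52 to -0.34) and Neat1 (-0.35 to -0.25) kept their sign and had an adjusted p-value over 0.05 in every fit. Scaling moved the median of all genes from 0.03 to between -0.0022 and 0.0050, and the share of higher genes among those with an unadjusted p-value under 0.05 from 76.6% to 55.2% with median-of-ratios, 40.9% with upper-quartile scaling and 50.7% without mt- genes.

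By limma, 1 gene (1110028F11Rik) had an adjusted p-value under 0.05 with no pseudocount (added after the data were examined), with at least 1 TPM in every dish, and with median-of-ratios or upper-quartile scaling. With each dish left out there were 0 to 2, with 2 genes without control replicate 2 and 1 without control replicate 3. Sfpq became -0.0046, -0.012 and -0.012 under median-of-ratios scaling, upper-quartile scaling and rescaling, and ran from -0.00025 to 0.029 with dishes left out. The cause was not tested.

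The ratio of Neat1 to Kcnq1ot1 turned to -0.054 with a pseudocount of 0.1 (adjusted exact permutation p = 0.371). With each dish left out, it ran from -0.0087 to 0.088, the ratio of Malat1 to the mitochondrial sum from -0.13 to 0.011, and that of Kcnq1ot1 from -0.046 to 0.059. The Kcnq1ot1 difference ran from -0.087 to -0.055, with p under 0.05 only without exposed replicate 4. The histone share ran from -0.00015 to 0.000067 percentage points, above 0 without control replicate 1. The cause was not tested.

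The replicate numbers did not pair the dishes (correlations of deviations from -0.04 to 0.03, and 0 of 8 dishes closest to their own number). With the replicate block, limma gave 0 genes, Malat1 and Neat1 had an adjusted p-value of 0.214 each, and the mitochondrial share differed by -1.90 percentage points with an exact sign-flip p of 0.125, the smallest that 4 pairs allow.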

Other observations

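The sign of the log2 fold change was also counted over whole gene classes. Of 498 tested genes that GENCODE M21 classes as long noncoding, 323 were lower and 175 higher (64.9% lower, median log2 fold change -0.06). Of 10927 tested coding genes outside the mitochondrial genome, 3742 were lower and 7185 higher (34.2% lower, median 0.03). In 24 of the 498 (4.82%) all exposed values were under the control values, against 1.56% of the coding genes, and 0 of either class passed the threshold by limma, with an unadjusted p-value under 0.05 for 60 lower and 10 higher long noncoding genes, 330 lower and 1394 higher coding genes, and 443 lower and 1451 higher of all 12122 tested genes. The medians of the noncoding class were -0.09, -0.08 and -0.09 under the other 3 scalings. The classes were compared after the data were examined, and the difference between them was not tested.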
